A study of Mus musculus with 5 samples.

Results

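The 8 genes of the interleukin-2 (IL-2), IL-7 and IL-15 axis were examined in tumor T cell libraries, namely the 3 ligands Il2, Il7 and Il15 and the 5 receptor chains Il2ra, Il2rb, Il2rg, Il7r and Il15ra. The members were chosen by gene symbol, and all 8 were found among the 32285 features of the T cell libraries. The cells came from tumors of 4T1, a breast cancer line of the mouse, placed in the mammary fat pads of BALB/c mice whose age the labels give as 12 weeks. All mice of both T cell libraries received doxorubicin (DOX), in 3 intravenous doses of 5 mg/kg given 3 days apart. The sensitive library held T cells of tumors labelled as sensitive to the drug and the resistant library T cells of tumors labelled as resistant to it. Per the study's methods each was a pool of 3 tumors, enriched by magnetic depletion of other cells and of Thy1.1-marked cancer cells. Each group had 1 library, so no difference below has a replicate check, none was tested, and the difference between response groups cannot be told apart from that between the libraries.

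IL-2, IL-7 and IL-15 are cytokines of the common gamma chain family. Their receptors share the gamma chain encoded by Il2rg, which signals through JAK3 beside JAK1 and then mainly STAT5. Il2rb encodes the beta chain that IL-2 and IL-15 share, Il2ra (CD25) the alpha chain that raises affinity for IL-2 and is typical of regulatory and activated T cells, and Il7r (CD127) the alpha chain for IL-7, which keeps naive and memory T cells alive. IL-15 is mostly made by non-lymphoid cells and shown to T and natural killer (NK) cells bound to the alpha chain encoded by Il15ra, and IL-7 comes mainly from stromal and epithelial cells. Activated T cells make IL-2.

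Lineage gates were drawn from unique molecular identifiers (UMIs) of marker genes. A T cell had a Cd3d, Cd3e or Cd3g UMI, and was placed in the Foxp3+ gate if it had a Foxp3 UMI, in the CD8 gate with Cd8a or Cd8b1 and no Cd4, in the CD4 gate with Cd4 and neither Cd8 gene, and otherwise in the gate of other T cells, which had both or neither. NK cells had no Cd3 UMI and at least 2 NK markers. The CD8 gate held 1308 sensitive and 1608 resistant cells, the CD4 gate 183 and 46, the Foxp3+ gate 97 and 35, the gate of other T cells 375 and 198, and the NK gate 27 and 24. The libraries labelled T cells also held 826 and 620 cells of the fibroblast gate, 194 and 166 of the macrophage gate, 128 and 165 of the neutrophil gate, 112 and 143 of the epithelial gate and 19 and 35 of the dendritic gate. Cd3e was seen in 96.0% of the sensitive and 96.9% of the resistant cells of the T and NK gates. The Foxp3+ gate was mixed, since 46.4% of its sensitive and 62.9% of its resistant cells also had a Cd8a UMI. The gate of other T cells was mixed too, and its makeup differed between the libraries. Cd8a was found in 24.8% of its sensitive and 41.9% of its resistant cells, and Cd4 in 29.1% and 44.9%. A ratio within that gate therefore cannot be told apart from this shift in makeup.

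The sensitive library held 31690845 UMIs in 3949 barcodes and the resistant library 35908799 UMIs in 6116. A barcode needed 500 detected genes and a mitochondrial share of no more than 10% to be kept, which left 3560 sensitive and 3250 resistant cells. The resistant library stood apart here, with 46.9% of its barcodes left out against 9.85%, and a median mitochondrial share of 5.65% against 2.55% in the kept cells of the T and NK gates, whose median depths were 4574 and 4024.5 UMIs. Both libraries shared 31 cell barcodes, 18 of them kept in both. A level below is in CPM, the UMIs of a gene scaled to 1000000 UMIs of all genes in the cells of a gate, and a ratio is the sensitive over the resistant CPM. Brackets give 95% intervals (exact Poisson for a level, Clopper-Pearson for a share, exact conditional binomial for a ratio), and these cover counting error only, not differences between mice. Those of levels and ratios also leave out the spread between cells, and are too narrow where few cells hold many of the UMIs.

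Il2, the ligand that T cells make, was confined to very few cells. In the sensitive library 12 UMIs were spread over 11 kept cells, 10 of which had 1 UMI. The resistant library had 102 UMIs in 7 kept cells, and 94 of them lay in 1 cell. Of the other kept resistant cells, 5 had 1 UMI and 1 had 3.

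**Figure D1:**
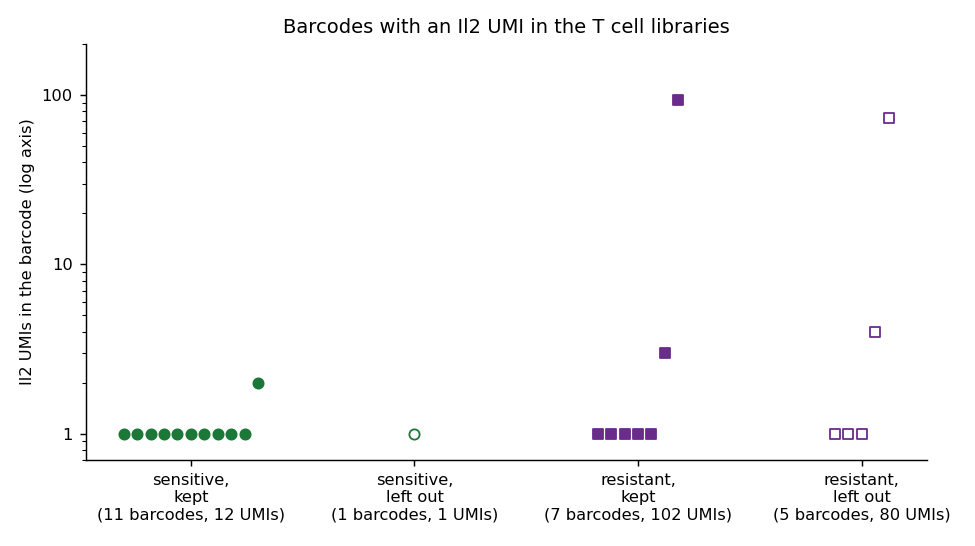
Each point is a barcode with at least 1 Il2 UMI, with its Il2 UMIs on a log axis, for kept and left-out barcodes of the sensitive and resistant T cell libraries. In the resistant library 1 kept barcode with 94 UMIs and 1 left-out barcode with 73 stand far above the others, which have at most 4.

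The cell with 94 Il2 UMIs had 3364 UMIs in all, so that Il2 made up 2.79% of its RNA count. It had Cd3e and Cd3g UMIs, none of Cd4 or Cd8 and 2 of the 8 genes of the T cell panel, and lay in the gate of other T cells. It also held 14 UMIs of Tnfrsf4 (OX40), 9 of Tnfsf8, 8 of Tnfsf11, 5 of Csf2, 4 of Il13 and 2 of Il2ra. These genes were picked after its counts were seen. In the T and NK gates of the same library Il13 was found in 0.576% of cells and Csf2 in 3.77%, while the other 4 were common, with Tnfrsf4 in 18.7%, Il2ra in 17.6%, Tnfsf11 in 15.9% and Tnfsf8 in 11.5%. Another barcode rich in Il2 was left out by the mitochondrial limit, with 11% mitochondrial UMIs. It held 73 Il2 UMIs of 3570, with 231 of Ccl1, 103 of Penk, 42 of Csf2 and 17 of Lta, and again no Cd4 or Cd8 UMI.

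In the CD8 gate Il2 had 5 UMIs in 4 sensitive cells and 5 in 3 resistant cells, a ratio of 1.46 [0.336, 6.34], and 2.19 without the top cell of each library. In the T and NK gates together the level was 1.17 CPM [0.602, 2.04] in the sensitive library and 9.05 CPM [7.37, 11] in the resistant one, a ratio of 0.129 [0.0644, 0.235]. Without the top cell of each library the ratio was 1.55, so its direction rested on the cell with 94 UMIs. That cell's gate, other T cells, had 4 sensitive UMIs at 2.03 CPM [0.552, 5.19] and 95 resistant ones at 87.2 CPM [70.5, 107], a ratio of 0.0233 [0.00621, 0.0615], and the cell held 98.9% of the resistant UMIs. Without the top cell of each library that ratio was 1.65. No Il2 UMI was found in the NK, dendritic, macrophage, fibroblast, neutrophil or epithelial gates. In the fibroblast gates, 0 of 826 and 0 of 620 cells allow a share of up to 0.363% and 0.484% with a UMI, while in the NK gates 0 of 27 and 0 of 24 cells allow up to 11.1% and 12.5%.

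The stretch of 250 bases before the RefSeq transcription start is shown for Il2, whose UMIs sat in so few cells, and for the receptor genes Il2ra and Il7r, which differed most between the libraries (RefSeq, GRCm38.p6). The Il2 window lies at chr3:37125955-37126204 on the minus strand, that of Il2ra at chr2:11642542-11642791 on the plus strand and that of Il7r at chr15:9529877-9530126 on the minus strand. The starts are those of RefSeq. In GENCODE M21 the Il7r gene reaches further upstream, to base 9530176, so that the whole Il7r window lies within its span, and the Il2 gene, which ends at base 37125959, overlaps the edge of its window. Capitals mark GGAAA or its reverse complement TTTCC, the core bound by nuclear factor of activated T cells.
Il2: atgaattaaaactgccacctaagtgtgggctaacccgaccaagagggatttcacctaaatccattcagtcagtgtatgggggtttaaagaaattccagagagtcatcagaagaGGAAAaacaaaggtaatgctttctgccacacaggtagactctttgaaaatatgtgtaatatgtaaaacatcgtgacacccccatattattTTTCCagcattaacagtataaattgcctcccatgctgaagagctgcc
Il2ra: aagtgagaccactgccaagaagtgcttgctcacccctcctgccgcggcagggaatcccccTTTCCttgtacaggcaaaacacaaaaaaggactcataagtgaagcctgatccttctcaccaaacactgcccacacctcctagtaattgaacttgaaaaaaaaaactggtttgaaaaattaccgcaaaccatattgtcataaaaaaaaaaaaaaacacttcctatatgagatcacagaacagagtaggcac
Il7r: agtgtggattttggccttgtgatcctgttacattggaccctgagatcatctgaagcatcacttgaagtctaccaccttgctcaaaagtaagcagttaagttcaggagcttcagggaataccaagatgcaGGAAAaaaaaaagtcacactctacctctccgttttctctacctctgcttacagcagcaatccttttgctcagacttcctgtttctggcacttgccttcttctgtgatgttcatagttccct
The Il2 window held 2 such stretches, and those of Il2ra and Il7r 1 each. Either strand of GGAAA was present in 55.6% of 32851 windows of this length, so its presence sets none of these genes apart. Windows were matched for 5 of the 8 members.

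Il15 and Il7 came mostly from cells outside the T and NK gates. In the sensitive library 50% of the 282 kept Il15 UMIs lay in the fibroblast gate, 18.4% in the neutrophil gate, 15.2% in the epithelial gate and 9.22% in the macrophage gate. In the resistant library the fibroblast gate held 25.6% of 156 kept UMIs, the neutrophil gate 22.4%, the epithelial gate 18.6% and the macrophage gate 7.69%. Fibroblasts thus held the largest share of any gate in both of these libraries, but a smaller one in the resistant library. Such shares follow the cells that the depletion left. The T and NK gates held 4 Il15 UMIs in 1990 sensitive cells and 9 in 1911 resistant cells, a share of cells of 0.201% and 0.471%.

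By level, Il15 was highest in the neutrophil gate. It stood there at 162 CPM [121, 212] in the sensitive library and 70.4 CPM [49.0, 97.9] in the resistant one, from 52 UMIs in 35 cells and 35 UMIs in 29 cells. Other gates with at least 20 UMIs in a library were well below it. The epithelial gate had 16.0 CPM [11.5, 21.5] and 9.47 CPM [6.34, 13.6]. The macrophage gate had 11.7 CPM [7.61, 17.1] and 6.16 CPM [3.18, 10.8]. The fibroblast gate had 10.7 CPM [8.99, 12.6] and 3.77 CPM [2.69, 5.13]. Within the sensitive library the last 3 gates did not differ beyond their intervals. In the resistant library the epithelial level lay above that of fibroblasts beyond their intervals, and the macrophage interval overlapped both.

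The level of Il15 was higher in the sensitive library in each of these 4 gates. Its ratio was 2.83 [1.98, 4.13] in fibroblasts, 2.29 [1.47, 3.63] in neutrophils, 1.68 [1.03, 2.80] in epithelial cells and 1.89 [0.921, 4.11] in macrophages, the last with an interval that holds 1. The remaining gates had few UMIs and went both ways. CD8 cells had 0 sensitive and 8 resistant UMIs, a ratio of 0 [0, 0.854], whose interval lies below 1. Dendritic cells had 2 and 7, a ratio of 0.409 [0.0415, 2.15], and the T and NK gates together had a ratio of 0.482 [0.108, 1.73]. CD4 cells had 3 and 0 UMIs and other T cells 1 and 0, too few for a ratio. In fibroblasts UMIs were not concentrated, as the top fibroblast held 4.96% of the sensitive and 5.00% of the resistant fibroblast UMIs. After each cell was thinned to 1000 UMIs, 14.1% [8.55, 21.3] of sensitive and 6.06% [2.94, 10.9] of resistant neutrophils had an Il15 UMI, with overlapping intervals. For fibroblasts the thinned shares were 1.47% [0.763, 2.56] and 0.323% [0.0392, 1.16], from 12 and 2 cells, and their intervals overlapped too. In fibroblasts, 1.5-fold differences in either direction were found for 7.95% of the 9985 genes with at least 100 UMIs over both libraries. Il15 and Il2rg were past it among the 4 members with that many. Il15 had 40 resistant UMIs and reached 100 only through the 141 of the sensitive library.

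Il7 was rare in every gate. The fibroblast gate held 29 and 17 UMIs, at 2.20 CPM [1.47, 3.16] in the sensitive library and 1.60 CPM [0.933, 2.57] in the resistant one, a ratio of 1.37 [0.729, 2.66]. The epithelial gate held 17 and 11 UMIs, at 6.31 CPM [3.67, 10.1] and 3.59 CPM [1.79, 6.43], a ratio of 1.76 [0.776, 4.15]. Neither ratio differed from 1 beyond counting error. The T and NK gates held 1 UMI in the sensitive library and 0 in the resistant one, so no ratio was taken, and 0 of 1911 cells allow a share of up to 0.157%. The 8 sensitive cells of the endothelial gate held 6 Il7 UMIs, all in 1 cell.

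Il15ra, the chain that carries IL-15 to other cells, was highest in fibroblasts. Its level there was 59.3 CPM [55.2, 63.6] in the sensitive library and 41.5 CPM [37.7, 45.5] in the resistant one, with UMIs in 45.5% and 42.7% of the cells. The ratio was 1.43 [1.27, 1.61]. The fibroblast gate held 78.4% of the sensitive and 65.9% of the resistant Il15ra UMIs. In the CD8 gate it stood at 13.4 CPM [10.7, 16.5] and 10.6 CPM [8.59, 12.8], a ratio of 1.27 [0.941, 1.71]. In other T cells it stood at 13.2 CPM [8.61, 19.3] from 26 UMIs and 10.1 CPM [5.04, 18.1] from 11, a ratio of 1.31 [0.623, 2.93]. Over the T and NK gates together it had 12.8 CPM [10.7, 15.2] and 10.7 CPM [8.83, 12.8], a ratio of 1.20 [0.931, 1.55]. All 3 of these ratios have intervals that hold 1. The epithelial gate was lower in the sensitive library, at 10.4 CPM [6.90, 15] from 28 UMIs against 14.4 CPM [10.4, 19.3] from 44, but its ratio of 0.723 [0.433, 1.19] did not differ from 1 beyond counting error. The gates of dendritic cells, neutrophils and NK cells had 11 or fewer UMIs in each library. Their intervals overlapped that of the CD8 gate, save for resistant dendritic cells, whose 11 UMIs gave 27.7 CPM [13.8, 49.6], an interval that also overlapped the one for fibroblasts.

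Fibroblasts differed among themselves in Il15ra. Cells with a UMI of Pi16, a marker of adventitial fibroblasts, had 63.4 CPM [58.7, 68.4] in the sensitive library and 43.2 CPM [39.2, 47.5] in the resistant one. Those without had 42.2 CPM [34.6, 51.0] in 115 cells and 20.3 CPM [11.6, 32.9] in 31 cells. The fibroblasts with Pi16 were the higher in both libraries, although they were shallower, with median depths of 13016 and 13692 UMIs against 20620 and 19177. Both Il15 and Il15ra were found in 56 of 826 sensitive and 17 of 620 resistant fibroblasts, or 6.78% [5.16, 8.71] and 2.74% [1.61, 4.35], and after thinning in 0 and 1 cells. The pair was not particular to fibroblasts. In the epithelial gate it was found in 5 of 112 sensitive and 11 of 143 resistant cells, or 4.46% [1.47, 10.1] and 7.69% [3.90, 13.3]. These shares lay in the other direction, with overlapping intervals.

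**Figure D2:**
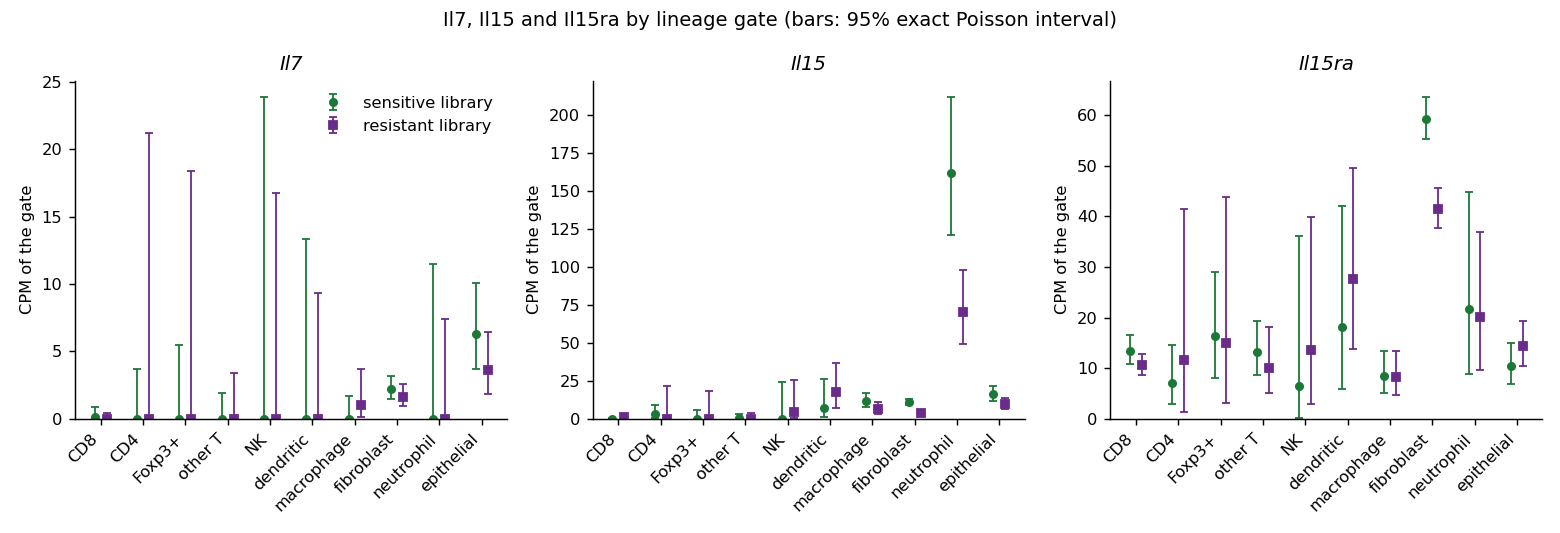
Level of Il7, Il15 and Il15ra (CPM of the gate) in 10 lineage gates of the sensitive (circles) and resistant (squares) T cell libraries, with 95% exact Poisson intervals as bars. Il15 is highest in neutrophils, at 162 and 70.4 CPM, and Il15ra in fibroblasts, at 59.3 and 41.5 CPM. Wide bars at or near 0 are gates with few UMIs in all.

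Among the receptor chains of T cells, Il2ra differed most between the libraries. In the T and NK gates together it had 1360 UMIs in 469 sensitive cells, at 132 CPM [125, 139], and 561 UMIs in 336 resistant cells, at 50.3 CPM [46.2, 54.6]. The ratio was 2.63 [2.38, 2.90]. No single cell decided it, since the top cell held 3.46% and 6.42% of the UMIs. Of the 6 members with at least 100 UMIs in these gates, Il2ra and Il7r were at least 1.5-fold higher and Il2 at least 1.5-fold lower in the sensitive library, against 10.3% of 9055 genes past that fold in either direction, 7.84% higher and 2.45% lower. Il2 reached 100 UMIs, and the lower side, only through the cell with 94 UMIs, and nothing is read from its count here. The median gene had a ratio of 1.10, relative to which the ratio of Il2ra was 2.38.

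The difference in Il2ra was not found in all gates. In the CD4 gate it had 324 CPM [290, 362] in the sensitive library and 40.2 CPM [16.2, 82.9] in the resistant one, the latter from 7 UMIs in 6 of 46 cells. The ratio was 8.06 [3.87, 20.2], in a gate where 23.2% of genes passed 1.5-fold. After each cell was thinned to 1000 UMIs, 14.9% [10.1, 21] of sensitive and 6.52% [1.37, 17.9] of resistant CD4 cells had an Il2ra UMI, with overlapping intervals. A few cells carried much of the sensitive level, as 5 of 183 cells held 39.4% of its UMIs, and 74 cells had any. In the Foxp3+ gate the levels were 519 CPM [466, 576] and 254 CPM [189, 335], a ratio of 2.04 [1.52, 2.79], beside 19.9% of genes past the fold. Other T cells had 177 CPM [159, 197] and 68.8 CPM [54.1, 86.3], a ratio of 2.58 [2.0, 3.35], beside 12.1% of genes. CD8 cells, the largest gate, had 51.2 CPM [45.9, 57.1] and 44.3 CPM [40.2, 48.8], and their ratio of 1.16 [0.998, 1.34] did not differ from 1 beyond counting error.

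The makeup of the T cells also entered the pooled ratio, since CD8 cells were 1308 of 1990 cells in the sensitive library and 1608 of 1911 in the resistant one. With the sensitive gates weighted as in the resistant library, the Il2ra ratio was 1.51. This weighting does not adjust for the differing makeup inside the gate of other T cells. Pooled over gates, fewer cells of a type and less RNA per cell cannot be told apart.

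By gate, the order of Il2ra levels in the sensitive library was Foxp3+, CD4, other T, CD8 and NK cells, and neighbours differed beyond their intervals except CD8 and NK cells. In the resistant library the Foxp3+ gate was again the highest, and the other T gates and NK cells followed with intervals that overlapped save those of CD8 and other T cells. A UMI of Il2ra was found in 73.2% [63.2, 81.7] of sensitive and 42.9% [26.3, 60.6] of resistant Foxp3+ cells. Thinned to 1000 UMIs, the shares were 40.0% [30.1, 50.6] and 28.6% [14.6, 46.3]. For comparison, fibroblasts, which should lack the gene, had it in 1.09% and 1.77% of cells at median depths of 13184.5 and 13763.5 UMIs, against 5709 and 4751 in the Foxp3+ gates.

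Within the Foxp3+ gate, cells without a Cd8a UMI had the higher Il2ra level. These 52 sensitive cells stood at 762 CPM [658, 877] and the 13 resistant ones at 551 CPM [360, 808], although 1 cell held 61.5% of the latter UMIs. Those with Cd8a stood at 373 CPM [317, 436] in 45 cells and 163 CPM [106, 241] in 22, and were deeper, with medians of 8096 and 6759 UMIs against 3299.5 and 3255. In the CD4 gate, 50 sensitive cells with a UMI of Il4, the signature cytokine of type 2 helper cells, had 568 CPM [496, 648] of Il2ra, and the other 133 had 168 CPM [137, 204]. The cells with Il4 were deeper, with a median of 6027.5 UMIs against 3496. The resistant CD4 gate had 45 cells without Il4, at 35.3 CPM [13.0, 76.8]. Dendritic cells had 10 Il2ra UMIs in 3 of 35 resistant cells and none in 19 sensitive cells.

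Il2rb, the chain that IL-2 and IL-15 share, was highest in NK cells in both libraries. Its level in the NK gate was 1023 CPM [869, 1195] in the sensitive library and 1037 CPM [907, 1181] in the resistant one, a ratio of 0.986 [0.799, 1.21] from 158 and 228 UMIs. CD8 cells had 452 CPM [436, 469] and 488 CPM [474, 502], a ratio of 0.927 [0.885, 0.971]. Other T cells had 428 CPM [400, 458] and 458 CPM [419, 500], a ratio of 0.935 [0.836, 1.05]. Foxp3+ cells had 427 CPM [379, 479] and 354 CPM [277, 447], a ratio of 1.21 [0.927, 1.59]. CD4 cells were the lowest of the T cells, at 250 CPM [220, 283] and 247 CPM [179, 333], a ratio of 1.01 [0.729, 1.43]. The CD8, Foxp3+ and other T gates did not differ beyond their intervals in the sensitive library, and NK cells lay above and CD4 cells below them there.

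In the T and NK gates together the ratio of Il2rb was 0.889 [0.854, 0.925], and relative to the median gene it was 0.805. No Il2rb UMI was found in dendritic cells, 0 of 19 and 0 of 35, which allow up to 15.8% and 8.57%. Fibroblasts had it in 2.42% and 5.16% of cells, against 71.1% and 80.2% of CD8 cells at less than their depth. Their level was 4.01 CPM [3.01, 5.25] from 53 UMIs, 30.2% of them in 1 cell, and 5.47 CPM [4.15, 7.07] from 58, a ratio of 0.735 [0.496, 1.08]. The T cell panel came to 31.1 CPM in sensitive fibroblasts and 64.9 CPM in resistant ones when summed, against 6145 and 5830 CPM in the T and NK gates. The epithelial gate had 5 sensitive UMIs of Il2rb at 1.85 CPM [0.602, 4.33] and 25 resistant ones at 8.17 CPM [5.28, 12.1], a ratio of 0.227 [0.0679, 0.604], which was 0.545 with the looser gate that asks for a smaller lead in markers. The T cell panel there summed to 18.9 and 33.3 CPM, and Cd3e was found in 0.893% and 6.29% of its cells. Both gates had more of the T cell panel in the resistant library, and its part in the fibroblast and epithelial values was not tested.

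CD8 cells with a UMI of Pdcd1 (PD-1, an inhibitory receptor of activated and exhausted T cells) had more Il2rb than those without. The level was 530 CPM [508, 552] with and 301 CPM [278, 325] without it in the sensitive library, and 525 CPM [509, 542] and 350 CPM [324, 377] in the resistant one. The median depth was 4643 and 3454 UMIs in the sensitive library and 5378 and 3725.5 in the resistant one. Il7r went the other way, at 238 CPM [223, 253] with and 316 CPM [293, 341] without Pdcd1 in the sensitive library and 178 CPM [168, 187] and 252 CPM [230, 275] in the resistant one. CD8 cells with Tcf7, a factor of naive and stem-like T cells, had less Il2rb in both libraries, 266 CPM [230, 306] against 475 CPM [458, 493] and 310 CPM [269, 355] against 501 CPM [487, 516]. Splits of this kind keep cells by whether a gene was seen and so depend on depth.

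Il2rg, the common gamma chain, was higher in the sensitive library in every T and NK gate, by less than 1.5-fold. Its level in the T and NK gates together was 711 CPM [694, 727] against 502 CPM [489, 515], a ratio of 1.42 [1.37, 1.47], and 1.28 relative to the median gene. CD4 cells had the highest level, with 1028 CPM [966, 1093] and 724 CPM [603, 862], a ratio of 1.42 [1.18, 1.72]. Foxp3+ cells had 816 CPM [749, 887] and 594 CPM [492, 711], a ratio of 1.37 [1.13, 1.69]. Other T cells had 773 CPM [735, 813] and 543 CPM [500, 589], a ratio of 1.42 [1.29, 1.57]. NK cells had 731 CPM [603, 879] and 551 CPM [457, 658], a ratio of 1.33 [1.02, 1.73]. CD8 cells were the lowest of these gates, with 632 CPM [613, 651] and 490 CPM [476, 505], a ratio of 1.29 [1.24, 1.34], though the interval of NK cells overlapped theirs in both libraries. After thinning, 48.7% [46.5, 51.0] of sensitive and 37.4% [35.3, 39.7] of resistant cells of these gates had an Il2rg UMI.

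UMIs of Il2rg were also found in gates outside the lymphocytes. Macrophages had 137 CPM [122, 153] and 129 CPM [114, 146], with UMIs in 60.3% and 58.4% of cells and a ratio of 1.06 [0.894, 1.26]. Fibroblasts had 21.2 CPM [18.8, 23.8] and 11.8 CPM [9.81, 14.0], a ratio of 1.80 [1.45, 2.24]. A UMI was found in 93 of 826 and 50 of 620 fibroblasts. The T cell panel summed to 61.8 and 60.6 CPM in macrophages and 31.1 and 64.9 CPM in fibroblasts. Its part in these Il2rg values was not tested. All sensitive fibroblasts without a Pi16 UMI together had 45 CPM [37.1, 54.0] of Il2rg, against 15.5 CPM [13.2, 18.1] in those with one. The 8 sensitive and 7 resistant cells of the endothelial gate held 34 and 25 UMIs, at 310 CPM [214, 433] and 183 CPM [118, 270], a ratio of 1.69 [0.981, 2.96], and 1 cell had 61.8% and 48.0% of them, without which the ratio was 1.06. Neutrophils had 65.2 CPM [40.4, 99.7] from 21 UMIs and 48.3 CPM [30.9, 71.8] from 24, a ratio of 1.35 [0.716, 2.53].

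Il7r was higher in the sensitive library in CD8, CD4 and other T cells but not in Foxp3+ cells. In the T and NK gates together it had 362 CPM [351, 374] from 1223 cells and 211 CPM [202, 219] from 1038 cells, a ratio of 1.72 [1.63, 1.81]. Weighted to the resistant makeup of gates, the ratio was 1.42. CD4 cells had 560 CPM [514, 608] and 322 CPM [243, 418], a ratio of 1.74 [1.32, 2.33]. Other T cells had 559 CPM [527, 593] and 315 CPM [282, 350], a ratio of 1.78 [1.57, 2.01], which was 1.45 with barcodes of up to 20% mitochondrial UMIs. CD8 cells had 264 CPM [252, 277] and 193 CPM [185, 202], a ratio of 1.37 [1.28, 1.46], and none of the 5 members with at least 100 UMIs in the CD8 gate reached 1.5-fold, beside 8.07% of 8387 genes.

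Foxp3+ cells had 500 CPM [448, 556] of Il7r in the sensitive library and 579 CPM [478, 694] in the resistant one, a ratio of 0.863 [0.697, 1.08]. Their level did not differ beyond its interval from that of CD4 or other T cells in the sensitive library, and in the resistant library it was the highest. CD8 cells were lower than these 3 gates in both libraries. NK cells were lowest of the T and NK gates, with 16 UMIs in 6 of 27 cells at 104 CPM [59.2, 168] and 4 UMIs in 3 of 24 cells at 18.2 CPM [4.96, 46.6], and their ratio of 5.69 [1.84, 23.4] rests on those 20 UMIs and was 2.47 with up to 20% mitochondrial UMIs allowed.

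Among other T cells, 81 sensitive and 19 resistant cells had a UMI of Trdc, the constant segment of the delta chain of gamma delta T cells. Their Il7r level was 718 CPM [630, 814] and 282 CPM [181, 420]. Cells without Trdc had 527 CPM [492, 563] and 317 CPM [284, 354]. In the sensitive library the cells with Trdc were thus the higher, and in the resistant library the intervals overlapped. CD8 cells with a UMI of Mki67, a gene of dividing cells, had 167 CPM [146, 190] and 132 CPM [119, 146] of Il7r, and those without had 289 CPM [275, 304] and 219 CPM [208, 231]. Dividing cells were thus the lower in both libraries, at median depths of 7128 and 8871 UMIs against 3931 and 4358.

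Macrophages had Il7r in 22.7% [17.0, 29.2] of sensitive and 25.9% [19.4, 33.3] of resistant cells, at 66.3 CPM [56.1, 77.9] and 75.0 CPM [63.3, 88.2], a ratio of 0.884 [0.699, 1.12]. The same gates had a summed T cell panel of 61.8 and 60.6 CPM, and its part in these values was not tested. Fibroblasts, with T panel sums of 31.1 and 64.9 CPM, had 4.70 CPM [3.60, 6.02] and 2.54 CPM [1.68, 3.70], a ratio of 1.85 [1.16, 3.02]. Macrophages with a UMI of Ccr2, the receptor of recruited monocytes, had 43.3 CPM [29.6, 61.1] and 43.5 CPM [29.6, 61.8] of Il7r, and those without had 77.7 CPM [64.2, 93.2] and 93.2 CPM [76.9, 112]. Dendritic cells had 3 UMIs at 10.8 CPM [2.23, 31.6] in the sensitive library and 21 at 52.9 CPM [32.7, 80.9] in the resistant one, the latter in 5 of 35 cells, a ratio of 0.205 [0.0391, 0.686], or 0.127 without the top cell of each library.

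**Figure D3:**
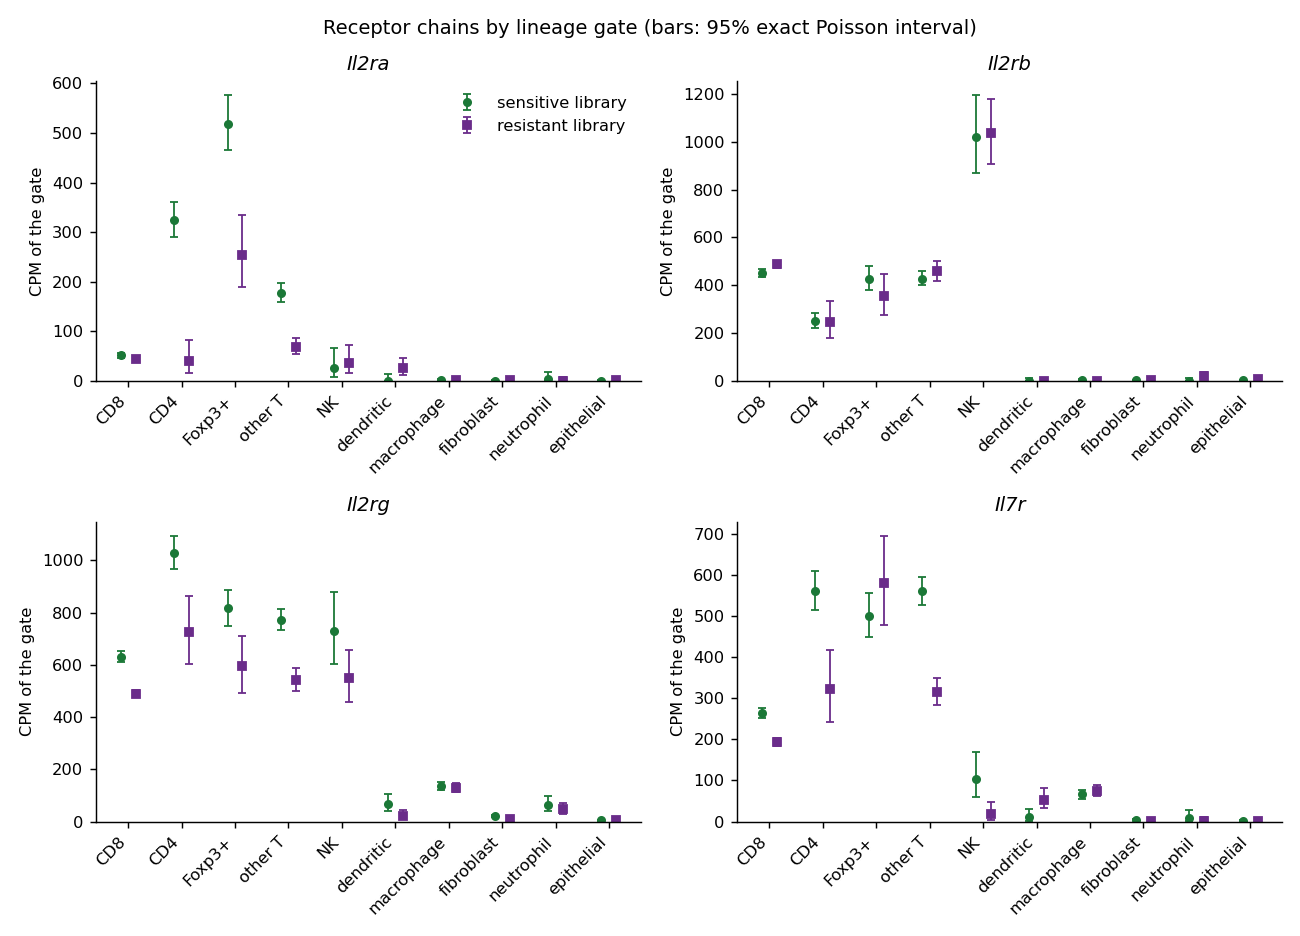
Level of Il2ra, Il2rb, Il2rg and Il7r (CPM of the gate) in 10 lineage gates of the sensitive (circles) and resistant (squares) T cell libraries, with 95% exact Poisson intervals as bars. Il2ra peaks in Foxp3+ cells at 519 and 254 CPM, Il2rb in NK cells at 1023 and 1037 CPM, and Il2rg in CD4 cells at 1028 and 724 CPM.

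**Figure D4:**
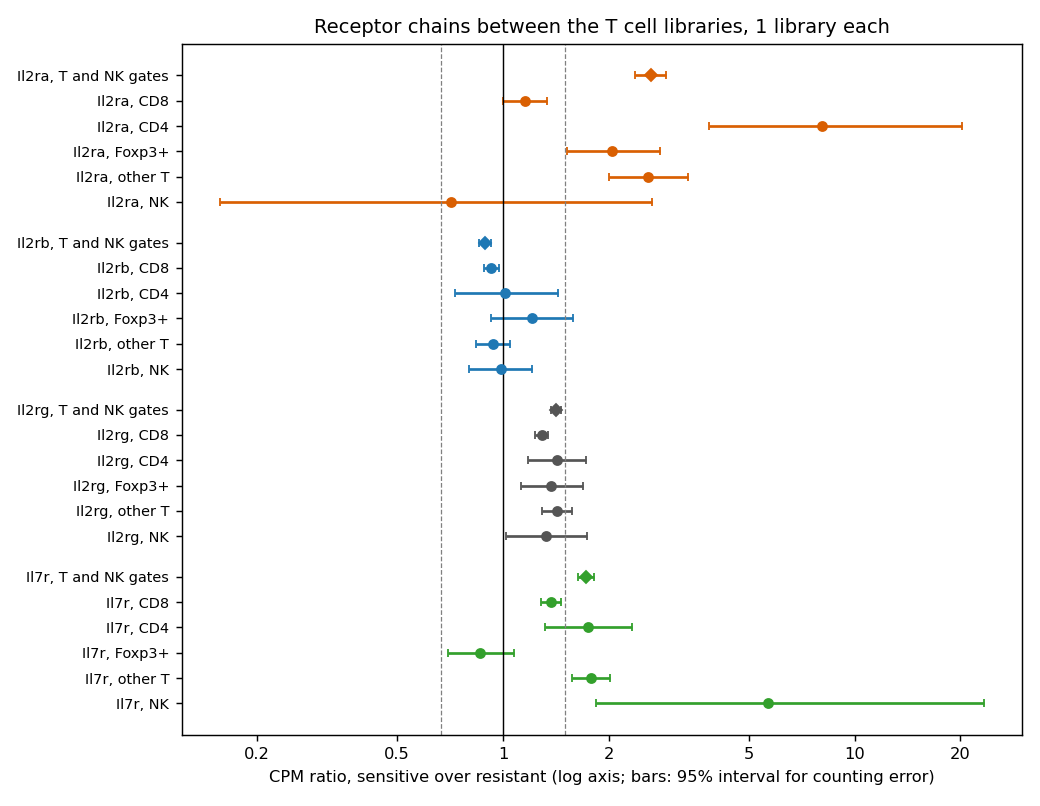
Ratio of CPM in the sensitive over the resistant T cell library for the receptor chains in the T and NK gates together (diamonds) and in single gates (circles), on a log axis, with 95% intervals for counting error. Dashed lines mark 1.5-fold. The Il2ra ratio runs from 0.711 in NK cells, with an interval that holds 1, over 1.16 in CD8 to 8.06 in CD4 cells, while those of Il2rb lie between 0.889 and 1.21.

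Chains of one receptor were also counted in the same cell. Il2rb and Il2rg, the pair that binds IL-2 with intermediate affinity and IL-15, were both seen in 62.5% [60.3, 64.6] of sensitive and 69.3% [67.2, 71.4] of resistant cells of the T and NK gates. After thinning the shares were 14.2% [12.7, 15.8] and 13.7% [12.2, 15.3], which overlap, so no difference was detectable at an equal depth. All 3 chains of the high-affinity IL-2 receptor were seen in 63.9% [53.5, 73.4] of sensitive and 40.0% [23.9, 57.9] of resistant Foxp3+ cells, and after thinning in 14 of 95 and 1 of 35 cells. Il7r and Il2rg were seen together after thinning in 14.5% [13.0, 16.1] of the sensitive and 7.5% [6.36, 8.77] of the resistant cells of the T and NK gates, and before thinning in 55.5% [53.3, 57.7] and 47.8% [45.6, 50.1]. In the CD8 gate alone this pair was seen after thinning in 10.8% [9.21, 12.7] of sensitive and 7.04% [5.84, 8.41] of resistant cells.

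Genes of the pathway downstream of these receptors, and of the other receptors and ligands of the family, formed a list of 26. Of these, 22 had at least 100 UMIs in the T and NK gates, 8 were at least 1.5-fold higher in the sensitive library and 0 were as much lower. The share past the fold was 36.4%, against 7.84% of all genes higher and 2.45% lower, and the median ratio 1.37 against 1.10. The list was chosen with earlier results of these data known, so these shares are descriptions and no independent support. Those higher were the suppressors of cytokine signaling Socs2 and Socs3, the kinases Pim1 and Pim2, the signal transducer Stat5a, the repressor Prdm1 (Blimp-1), the receptor chain Il4ra and the cytokine Il4. Relative to the median gene 6 passed. Il4 reached 100 UMIs only through the sensitive library, where it was high, and without it 7 of 21 genes passed, or 33.3%, with a median ratio of 1.35. In the CD8 gate alone 5 of the 21 genes with at least 100 UMIs there were at least 1.5-fold higher and 0 as much lower, or 23.8% beside the 8.07% of all genes of that gate, and their median ratio was 1.28. These 5 were Socs3, Pim1, Pim2, Prdm1 and the IL-21 receptor gene Il21r, whose ratio was 1.60 [1.43, 1.79] there and which did not pass in the T and NK gates together.

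Socs3 had 57.2 CPM in the sensitive library and 17.3 CPM in the resistant one, a ratio of 3.31 [2.81, 3.91], and Pim1 had 318 and 144 CPM, a ratio of 2.21 [2.08, 2.35]. Both stayed above 1.5-fold in CD8 cells, with ratios of 2.70 [2.17, 3.37] and 1.58 [1.46, 1.72]. Pim2 had 94.4 and 53.1 CPM, a ratio of 1.78 [1.60, 1.97], and 1.93 [1.72, 2.16] in CD8 cells. For Prdm1 the levels were 28.6 and 16.8 CPM, a ratio of 1.70 [1.41, 2.05], and 1.60 [1.29, 1.99] in CD8 cells. Stat5a had 23.9 and 14.4 CPM, a ratio of 1.66 [1.35, 2.03], but 1.14 [0.859, 1.5] in CD8 cells. Socs2 had a ratio of 1.60 [1.42, 1.81] and Il4ra of 1.58 [1.35, 1.85], and in CD8 cells of 1.28 [1.10, 1.49] and 1.5 [1.24, 1.82], the latter just under the fold before rounding.

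Il4 had 896 UMIs in 92 sensitive cells and 13 in 10 resistant cells, a ratio of 74.7 [43.5, 141]. A single sensitive cell held 606 of these UMIs, or 67.6%, and without the top cell of each library the ratio was 31.5 [16.9, 66.4]. Cish, an early target of STAT5, had 288 and 199 CPM, a ratio of 1.45 [1.37, 1.53], and Bcl2, a survival factor, had 310 and 343 CPM, a ratio of 0.904 [0.862, 0.947]. Neither passed the fold.

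**Figure D5:**
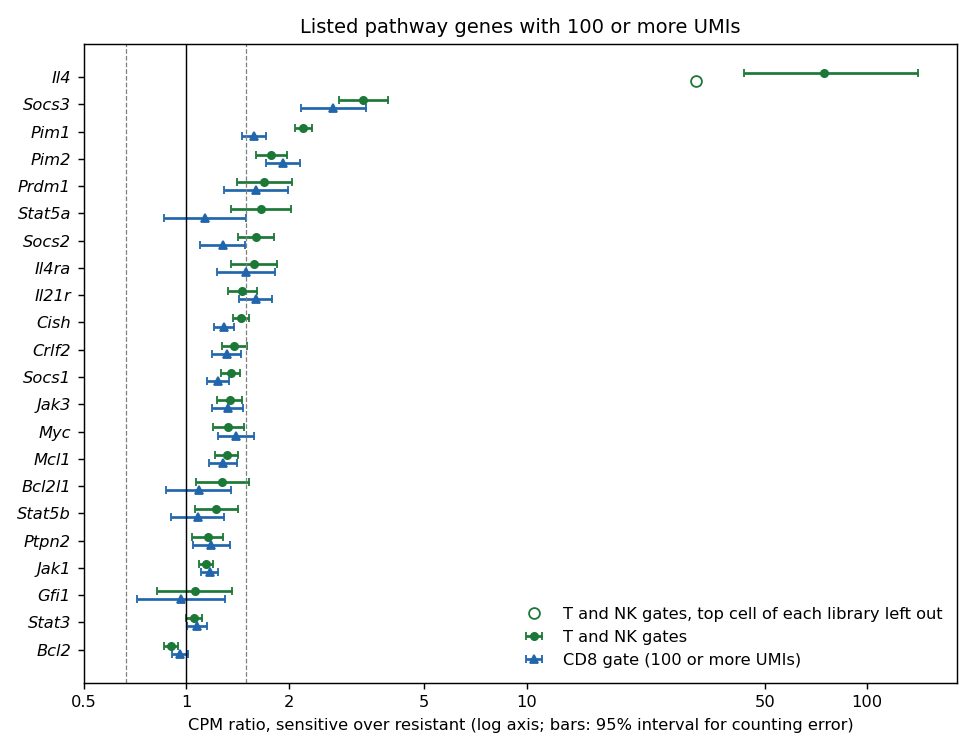
Ratio of CPM in the sensitive over the resistant T cell library for the 22 listed pathway genes with at least 100 UMIs in the T and NK gates (circles), and in the CD8 gate where they had as many (triangles), on a log axis with 95% intervals for counting error. Dashed lines mark 1.5-fold. Il4 lies at 74.7 and, without the top cell of each library (open circle), at 31.5, and Bcl2 lies lowest at 0.904.

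Patterns across the 10 gates of both libraries, 20 points in all, were set against those of 12559 other genes by Pearson correlation of log2(CPM + 10). The points share 2 libraries, so the correlations are descriptions. Il2ra was most like Ctla4 (r = 0.938) and Tnfrsf18 (r = 0.932), which encode the regulatory T cell receptors CTLA-4 and GITR, and Lnx2 (r = 0.930). Il2rb was most like Gm19585 (r = 0.995), Ctsw (r = 0.989), a protease of cytotoxic cells, and Gimap4 (r = 0.988). For Il2rg they were Cd69 (r = 0.967), Sash3 (r = 0.965) and Rasgrp1 (r = 0.960), for Il7r Madd (r = 0.942), Icos (r = 0.925) and Mif4gd (r = 0.922). For Il15 they were Dhrs9 (r = 0.960), Wsb1 (r = 0.935) and Osbpl9 (r = 0.929), and for Il15ra Itga2b (r = 0.891), Plce1 (r = 0.871) and Srgap1 (r = 0.865). The closest genes to Il2, Trav7-5 (r = 0.799), Tpsb2 (r = 0.724) and Trav21-dv12 (r = 0.692), rest on the gate that holds the cell with 94 UMIs.

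The 8 genes were also found in the 3 whole-tumor libraries, labelled control (saline), sensitive and resistant, which list 54987 features and held 488, 269 and 263 kept cells. The source field of the library labelled resistant names a sensitive tumor, as does that of the control, so these are called by label and were compared neither with each other nor with the T cell libraries. Il15 had 48, 48 and 31 UMIs in 38, 40 and 28 cells. There the neutrophil gate, with 264, 178 and 124 cells, held most of them, 72.9%, 70.8% and 61.3%, at 62.7 CPM [43.7, 87.2], 104 CPM [72.0, 145] and 63.7 CPM [38.3, 99.5]. Fibroblasts were nearly missing, with 6 cells and 1 Il15 UMI in the control and 5 cells and 0 UMIs in the library labelled resistant. Il7r had 74, 19 and 31 UMIs, Il2rb 66, 19 and 60, and Il2rg 38, 14 and 49. The remaining members had 16 or fewer in each, and Il2 had 0, 0 and 2. The T and NK gates held 49, 4 and 15 cells there, too few for levels of the members in those gates.

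In the genome (GRCm38, GENCODE M21), Il2 lies at chr3:37120523-37125959, Il7 at chr3:7569994-7613760, Il2ra at chr2:11642807-11693193, Il15ra near it at chr2:11705290-11734317, Il2rb at chr15:78479256-78495271, Il7r at chr15:9505788-9530176, Il15 at chr8:82331632-82403222 and Il2rg at chrX:101264378-101268255. Values are for whole genes, since the counts do not tell exons or isoforms apart.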

How the data were processed

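Per the file headers and the submitters' processing notes, Cell Ranger (6.0.0 for the T cell and 3.0.1 for the whole-tumor libraries) was run on mm10, and the authors deposited its UMI counts per gene and barcode, not normalized. Names of genes and barcodes came with them. Everything else was computed here from these counts with Python 3.11.15, numpy 2.4.6, scipy 1.17.1 and pandas 2.3.3.

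The limits for a barcode were 500 genes and 10% mitochondrial UMIs in the T cell libraries, and 200 genes and 20% in whole tumor. A cell was given the lineage with most detected marker genes of its panel (8 genes for T cells) if it had at least 2 markers of its own (T, NK, dendritic) or 3 (other lineages) and at least 2 more than of any other lineage. The markers stood in the design, and the numbers required were set after the data were seen. No doublet caller was run. Cells without that lead stayed unassigned, so a gate can still hold cells with some markers of another lineage or doublets (Cd3e was found in 3.75% of sensitive and 8.55% of resistant fibroblasts), and the 5% of cells with most UMIs were left out as an alternative.

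UMIs were summed over the cells of a gate and scaled to CPM, that is to 1000000 UMIs. Single-library groups allow no test, so no p-value is given. A count of 0 was read as allowing up to 3 counts. Members past 1.5-fold were counted among genes with at least 100 UMIs over both libraries. In the T cell libraries the 8 members were reported with full values in each lineage gate where a library held at least 20 UMIs, with every listed pathway gene past the fold and, for each member with at least 100 UMIs, the 3 genes most like it. The split genes and the genes of single cells were chosen after the data were seen. The ratio and its interval were checked on simulated counts. The members and lists were chosen with earlier results of these data known. Alternatives were other limits, gates, scalings and weights, leaving out single cells and thinning each cell to 1000 UMIs.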

Additional observations from a re-analysis of the deposited data

Results flagged for a closer look

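The ratio of Il7r between the T cell libraries (sensitive over resistant CPM) went in opposite directions in different gates. It was 1.37 in CD8 cells, 1.74 in CD4 cells, 1.78 in other T cells, 5.69 in NK cells and 1.85 in fibroblasts, while in dendritic cells it was 0.205. The dendritic value comes from 3 and 21 UMIs and the NK value from 16 and 4, the first was 0.127 without the top cell of each library and the second 2.47 with up to 20% mitochondrial UMIs, and the difference between gates was not tested.

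Barcodes that failed the limits on genes or mitochondrial UMIs also held UMIs of these genes, in 2866 barcodes of the resistant and 389 of the sensitive library. In the resistant library they held 80 UMIs of Il2, 73 of them in 1 barcode, 198 of Il2ra, 1637 of Il2rb, 1786 of Il2rg, 4 of Il7, 1244 of Il7r, 76 of Il15 and 93 of Il15ra. In the sensitive library they held 22 of Il2ra, 89 of Il2rb, 114 of Il2rg, 82 of Il7r, 12 of Il15 and 19 of Il15ra. A left-out resistant cell of the CD4 gate with 4 Il2 UMIs also held 310 of Il4, 154 of Il13, 295 of Csf2 and 581 of Ccl1.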

How the results depend on the processing

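Ratios in the T and NK gates together kept their direction under every alternative run except for Il2 and Il15. For Il2 (0.129) the ratio was 1.86 with 1 more marker of its own required for a gate, which drops the cell with 94 UMIs, and 1.55 with the top cell of each library left out, and it was 0.643 as a ratio of thinned shares. The thinned shares of Il15, from few cells, gave 1.93. For the others the thinned shares gave 2.19 for Il2ra, 0.787 for Il2rb, 1.30 for Il2rg and 1.5 for Il7r. Scaled by the median gene ratio, Il2rb was 0.805, Il2rg 1.28 and Il7r 1.56. As a mean over cells, Il2ra was 2.34 and Il2rb 0.848. Il7r was 1.58 with up to 20% mitochondrial UMIs. With gates weighted as in the resistant library, an alternative added after the data were seen, Il2ra was 1.51, Il2rb 0.935, Il2rg 1.31 and Il7r 1.42. The limit of 200 genes, the looser gate and leaving out the 5% of cells with most UMIs (added after the data were seen) moved none of the 7 ratios beyond its interval. At a fold of 2, 3 pathway genes passed in place of 8. Among the 41 ratios run in single gates, that of Il2 in other T cells (0.0233) was 1.65 without the top cell of each library. Those of Il2rb in CD4 (1.01) and NK cells (0.986) and of Il2ra in NK cells (0.711), whose intervals hold 1, crossed 1 under 3, 2 and 1 alternatives (1.43 with the looser gate for Il2ra). Of these 41 ratios 3 in CD8 cells scaled by the median gene (Il2rb 0.846, Il2rg 1.18, Il7r 1.25) and that of Il7r in other T cells with up to 20% mitochondrial UMIs (1.45) left their interval. No paired analysis was possible because each group had 1 library.

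The 46 resistant CD4 cells, 35 resistant Foxp3+ cells and 51 NK cells of both libraries limit those gates, and the ligands Il2 and Il7 had too few UMIs in T cells for a comparison.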
